A study of Saccharomyces cerevisiae with 58 samples.

Results

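The late phase of the wild-type response to methyl methanesulfonate (MMS) was read from 5 of the 58 arrays of the series. Wild-type cells sampled 120, 140 and 180 min after the drug was added (late, 3 arrays) were set against wild-type cells sampled at 20 and 40 min (early, 2 arrays), to find transcripts whose change arises late, goes back or turns round while the drug stays on. The arrays were chosen by strain, treatment and time in their titles and not by any measured value.

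Total RNA was copied from poly(T) primers and hybridised to Affymetrix Yeast 2.0 arrays. Cells of both phases came from the same wild-type strain, WY37, which per the methods is MATalpha and carries the ura3-52, his3delta200, lys2delta201 and ade2 alleles, was grown in YPD at 30 degrees to mid-log phase and received 0.1% MMS at time 0. The same times were sampled in an isogenic rpb6 mutant, in which the chromosomal RPB6 gene is replaced by HIS3 and an rpb6 allele with a glutamine-to-arginine substitution is carried on a CEN/LEU2 plasmid. The mutant otherwise shares the genotype of the wild type and grows more slowly. Each strain gave 1 array per time point under MMS, so a p-value below measures the spread between arrays of a phase, which includes real change within that phase. The series holds no untreated culture sampled alongside the MMS course after 0 min. Time in MMS and time in culture therefore cannot be told apart in any late minus early difference below.

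MMS adds methyl groups to DNA bases, chiefly on purines, and also reacts with RNA and protein. Base excision repair removes the methylated bases, stalled replication forks activate the Mec1 and Rad53 kinases, and Rad53 signalling raises ribonucleotide reductase genes. Yeast cells under many stresses also switch on a common set of Msn2/4-dependent genes and switch off ribosome assembly, and the transcription factor Rpn4 raises the genes of the proteasome, which degrades damaged proteins.

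Values are log2 mRNA levels that the authors computed by robust multi-array average (RMA), which forces every array onto a common intensity distribution, so every change is relative to the average transcript. In bulk RNA, fewer cells that carry a transcript and less of it per cell cannot be told apart. Of 5716 S. cerevisiae probe sets, 97.9% had a mean level above 5.12, the 95th percentile of the 1747 probe sets that the chip carries for S. pombe genes, which stand in for background. The 4 MATalpha markers stood between 12.78 (STE3) and 14.06 (MF(ALPHA)1) at 0 min, and 3 of them fell late (1 without the 20 min array), with STE3, the a-factor receptor, at 11.20, 10.95 and 10.43 late against 12.38 and 11.88 early. The 7 MATa markers stood between 6.20 (ASG7) and 9.02 (MFA1) at 0 min, above that background too, and 4 of them rose late (AGA2, ASG7, MFA1 and STE6, by 0.54 to 0.89). The part of these shifts in other results was not tested. HIS3, which the methods list as deleted in the wild type, nevertheless read 11.06 at 0 min, so the genotype as listed and this probe set go against each other. No comparison below rests on HIS3. LYS2, also listed as deleted, read 9.95 at 0 min, which goes against the listed genotype in the same way. URA3 and ADE2, listed as mutant alleles, read 9.06 and 10.57. What these probe sets read was not tested. LYS2 was itself called lower late than early (-0.35 ± 0.10, adjusted p = 0.028 by limma). It lost this call without the 20, 120, 140 or 180 min array. The weight of LYS2 among the lysine genes below was not tested.

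Late and early arrays differed in a large share of the transcriptome. With limma and Benjamini-Hochberg adjustment over all 5716 probe sets, 1515 (26.5%) were higher late than early and 1317 (23.0%) were lower at an adjusted p under 0.05. Among these, 298 of the higher and 408 of the lower probe sets differed by at least 2-fold. The median of all probe sets was 0.05 on the log2 scale, which the normalization holds near 0. The 3 late arrays lay above both early arrays for 36.3% of all probe sets and below both for 31.1%, and these shares are the background for any statement below that arrays do not overlap. Of the 233 genes named by rule, chosen largely for the size of their difference, 95 lay above and 135 below in this way. Non-overlap in a named gene therefore adds no support. The 5 arrays carry little replication, and without the 140 min array 1844 probe sets passed in place of 2832. With 80 min counted as early and 100 min as late 587 passed.

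The 80 and 100 min arrays enter neither mean of the contrast, but they enter the estimate of the spread, and 2374 probe sets passed without the 80 or without the 100 min array. Mid (80 and 100 min) minus early, which shares the early arrays, was called for 2063 probe sets (36.1%). Late minus mid gave 0 calls by limma, with 1200 probe sets at an unadjusted p under 0.05, and also 0 after median centring or without dim probe sets. The median probe set that was higher late stood 70.5% of the way from its early to its late mean at 80 min, and 85.4% at 100 min. For those lower late the medians were 64.8% and 81.8%. The median size of the change from 0 min, over all probe sets, was 0.31 at 20 min, 0.54 at 40 min, 0.70 at 80 min, 0.71 at 100 and 120 min and 0.69 at 140 and 180 min. The largest departure from 0 min fell at 80 min for 23.1% of probe sets and at 180 min for 28.9%.

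Each probe set that passed was sorted by its mean late and mean early change from the 0 min array against a limit of 1.75-fold (0.81 on the log2 scale, the fold limit of the study's methods). The 0 min array is shared by both changes, so the classes are counts without a test. Only the late change passed the limit for 1086 probe sets (late-arising, 537 higher and 549 lower than early). Only the early change passed it for 186 (reverted, 94 higher and 92 lower late than early). Both passed with opposite signs for 8 (reversed). A larger change of the same sign was seen late in 374 (amplified) and a smaller one in 61 (attenuated), and neither phase passed the limit in 1117. Late-arising changes far outnumbered reverted ones. Of the late-arising probe sets, 740 were already past the limit at 80 min and 187 were inside it at both 80 and 100 min.

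**Figure D1:**
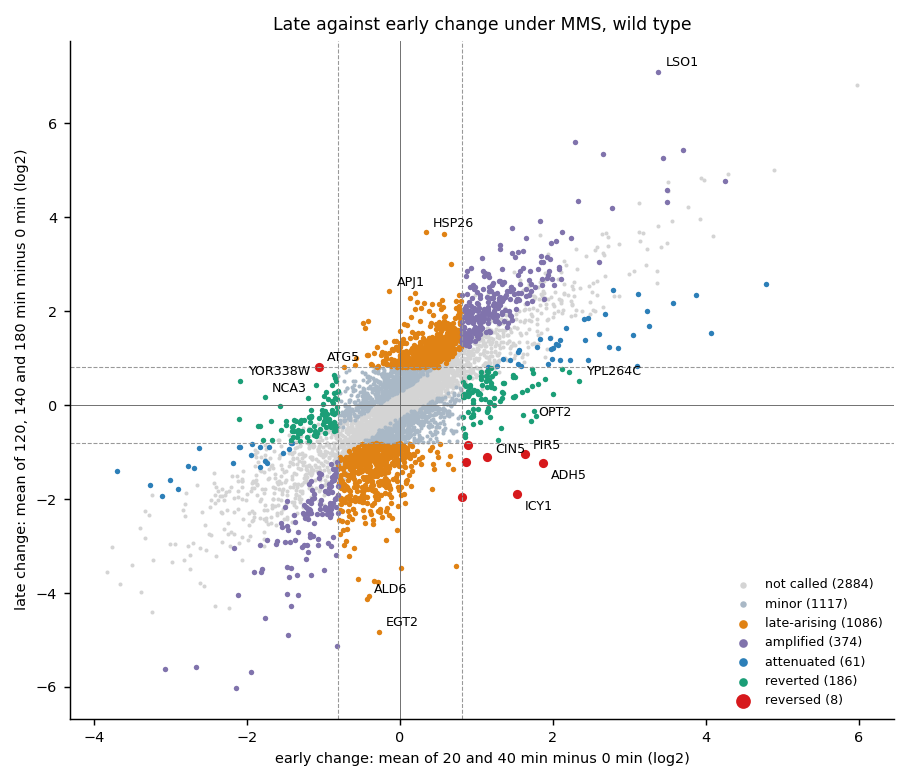
Mean late change (120, 140 and 180 min minus 0 min, vertical axis) against mean early change (20 and 40 min minus 0 min, horizontal axis), both log2, for all 5716 probe sets of the wild type, coloured by class. Dashed lines mark the 1.75-fold limit. The 8 reversed probe sets lie in the upper left and lower right corners outside both pairs of lines.

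In the account by gene group, differences are late minus early on the log2 scale ± SE, with adjusted p from limma over all probe sets, and the background share of calls is the 26.5% up and 23.0% down given above. Where 5 or fewer members of a list went one way they are named, chosen after their values were seen. The counts of gene lists describe members that share arrays and are no test of a list.

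Excision repair genes were more often higher than lower late. In the list of base and nucleotide excision repair genes 16 of 28 measured members rose and 2 fell (UNG1, a uracil glycosylase, and TFB1, a TFIIH subunit, by 0.76 and 0.38, TFB1 not without the 140 min array), with a median of 0.43. MAG1, the glycosylase that removes 3-methyladenine, read 12.52, 12.65 and 12.78 late against 10.75 and 11.57 early, a difference of 1.49 ± 0.24 (SE, adjusted p = 0.0043). RAD16, which acts in nucleotide excision repair of non-transcribed DNA, read 11.47, 11.57 and 11.74 late against 9.52 and 10.39 early (1.64 ± 0.25, adjusted p = 0.0035). RAD28 moved the most in this list, with 10.92, 11.02 and 11.08 late against 8.50 and 9.05 early (2.23 ± 0.20, adjusted p = 0.0017), and its early mean was below its 0 min level of 9.25. Late and early arrays did not overlap for any of the 3.

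HUG1, a Rad53-pathway inhibitor of ribonucleotide reductase, read 12.52, 12.58 and 12.51 late against 9.97 and 11.13 early (1.99 ± 0.31, adjusted p = 0.0038). DDI1, a ubiquitin receptor with a protease-like domain, rose by 2.01 ± 0.30 and the checkpoint clamp gene RAD17 by 1.03 ± 0.21. The list of damage checkpoint and ribonucleotide reductase genes had 12 of 26 members up and 4 down, with a median of 0.41. Without the 140 min array 7 were up.

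The 4 ribonucleotide reductase genes did not move together. RNR1, the large subunit used in S phase, read 10.99, 10.73 and 9.97 late against 12.49 and 12.02 early and fell by 1.69 ± 0.31 on the log2 scale (adjusted p = 0.0057). Its early mean was 0.09 above 0 min, so the fall arose late. RNR2 and RNR4, the small subunits, rose by 0.56 ± 0.10 and 0.42 ± 0.10, RNR4 without a call when the 140 min array was left out. RNR3, the damage-induced large subunit, was 2.40 above 0 min late and 1.58 above it early, and its late minus early difference of 0.82 ± 0.26 passed at an adjusted p of 0.037 but lost the call without the 20, 80, 100, 120 or 140 min array. The other checkpoint genes that fell were MEC1, TOS4 and DIF1 (-0.73, -0.80 and -0.46), and DIF1 lost its call without the 20, 40, 120 or 140 min array. DDI3, whose probe set may also read its near-identical copy DDI2, stood at 14.23, 14.13 and 13.84 late against 12.50 and 13.96 early and at 7.25 at 0 min, and its difference of 0.84 ± 0.39 was not called (adjusted p = 0.11).

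In the recombination and translesion list 17 of 39 rose and 5 fell (CSM2, PSY3, MMS2, RTT107 and SRS2, of which 2 were called without the 140 min array and 3 without the 80, 100 or 180 min array), with a median of 0.27. XRS2, of the double-strand break complex, rose by 1.17 ± 0.23. RAD54, a recombination translocase, read 11.40, 11.55 and 11.53 late against 9.88 and 10.76 early (1.17 ± 0.24). PSO2, a nuclease for interstrand crosslinks, rose by 1.14 ± 0.19, and TOP3 by 1.05 ± 0.14 at levels close to background. CSM2 and PSY3 encode partners of 1 complex and lay 0.73 and 0.55 lower late.

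Proteasome genes went one way. Of 42 measured subunits and assembly factors 35 rose, 0 fell and 7 were not called, with a median difference of 0.69 and calls between 0.43 and 0.97, and 31 of the 35 were late-arising. RPN4, their activator, stood 1.76 above 0 min late and 0.81 above it early, with levels of 13.61, 13.63 and 13.69 late against 12.72 and 12.67 early (0.95 ± 0.11, adjusted p = 0.002). RPT4, an ATPase of the base, read 14.14, 14.15 and 14.16 late against 12.90 and 13.46 early (0.97 ± 0.16). PRE5, a core subunit, and RPN8, of the lid, rose by 0.96 ± 0.15 and 0.94 ± 0.13. The 3 late arrays of these genes lay close together, and the list's median was 0.87 at 80 min, 0.95 at 100 min, 1.02 at 120 min, 1.04 at 140 min and 1.06 at 180 min above 0 min. Leaving out any 1 array left between 30 and 39 members up, whereas 2 were called with 80 min counted as early and 100 min as late.

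Ubiquitin and Cdc48 genes went the same way in part, with 15 of 28 up and 3 down (TOM1, UBC8 and UBC7, a ligase and conjugating enzymes, of which 1 was called without the 140 min array). HUL5, a ligase that acts at the proteasome, rose by 1.31 ± 0.25, and NPL4, a Cdc48 cofactor, by 1.16 ± 0.21.

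Chaperone genes were among the largest rises. Among small heat shock proteins and disaggregases 7 of 9 rose and 0 fell, with a median of 1.35. HSP26 read 13.96, 13.79 and 13.33 late against 9.46 and 11.23 early, a 10.2-fold difference (3.35 ± 0.48, adjusted p = 0.0031), and its 20 min level was below the 10.01 of 0 min. HSP30, a plasma membrane heat shock protein, read 13.35, 12.98 and 13.17 late against 9.67 and 10.03 early (3.32 ± 0.18, adjusted p = 0.0015). BTN2 and CUR1, which sort aggregated proteins, rose by 2.31 ± 0.22 and 2.09 ± 0.19. Without the 120 or the 140 min array 4 of the 9 were called.

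Of 33 Hsp70, Hsp90 and co-chaperone genes 24 rose and 5 fell. The Hsp40 gene APJ1 read 10.66, 10.70 and 11.14 late against 8.02 and 8.52 early (2.56 ± 0.23, adjusted p = 0.0017), and AHA1, which stimulates the Hsp90 ATPase, 13.38, 13.48 and 13.44 late against 11.24 and 11.44 early (2.09 ± 0.14, adjusted p = 0.0015). Both had early means below 0 min and are late-arising. SSA4, a stress-induced Hsp70, rose by 1.98 ± 0.35. The 5 that fell were SSB2 (-1.14), SNL1 (-1.04), SSB1 (-0.70), SSQ1 (-0.42) and MGE1 (-0.36). Of the 5 calls 2 were left without the 140 min array and 3 without the 20, 80, 100, 120 or 180 min array, and SSB2 lost its call without the 20, 80, 100, 120 or 140 min array. SSB1 and SSB2 are near-identical Hsp70s that bind nascent chains on the ribosome, and their probe sets may share signal.

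Autophagy and vacuolar proteolysis genes were up in 17 of 35 cases and down in 2, ATG10 and PBI2 (1 without the 20, 40, 140 or 180 min array), with a median of 0.56. ATG39, a receptor for autophagy of the nucleus, read 11.59, 11.56 and 11.72 late against 9.53 and 10.19 early (1.76 ± 0.20, adjusted p = 0.002), and ATG11, a scaffold of selective autophagy, rose by 1.34 ± 0.17. This count depends on which arrays enter: 27 members were up without the 40 min array, 9 without the 120 min array and 8 without the 140 min array.

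LSO1, a gene induced by iron shortage, had the largest rise of the 233 genes named by rule: 10.96, 11.18 and 11.36 late against 6.22 and 8.66 early, a 13.2-fold difference (3.73 ± 0.65, adjusted p = 0.005). At 0 min it read 4.06, below the background percentile. The iron regulon had 18 of 33 members up and 5 down. TIS11, which directs iron-dependent mRNAs to decay, rose by 1.34 ± 0.18, and FIT2, a cell wall mannoprotein for siderophore iron, by 1.33 ± 0.26. The 5 that fell were VHT1, HMX1, MRS4, FIT1 and FRE4, by 0.50 to 1.09, and 3 were called without the 120, 140 or 180 min array.

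Purine and one-carbon genes went both ways. ADE17, of the last steps to inosine monophosphate, read 14.24, 14.22 and 13.91 late against 11.67 and 12.61 early (1.98 ± 0.27, adjusted p = 0.0027). ADE2, of which the strain carries a mutant allele, rose by 1.85 ± 0.17 and GCV1, of the glycine cleavage complex, by 1.72 ± 0.27. The list had 13 of 29 up, 9 of them late-arising, and 3 down (9 down without the 40 min array). The 3 that fell were IMD4 (-1.97), IMD3 (-1.32) and IMD2 (-1.08), which encode the dehydrogenase of the guanine branch and are close paralogues. IMD2 lost its call without the 20, 120 or 140 min array. The median of the list was 0.17.

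Among other large rises, LPL1, a lipase, rose by 2.34 ± 0.29, YOL131W by 3.08 ± 0.39, MND2, a regulator of the anaphase-promoting complex, by 2.20 ± 0.29 and ECL1 by 2.20 ± 0.21. PUT1, the first enzyme of proline breakdown, rose by 2.14 ± 0.29 and AAD6, an aryl alcohol dehydrogenase gene, by 2.70 ± 0.45. HXT5, a hexose transporter of slow-growing cells, rose by 1.77 ± 0.49 and lost its call without the 120 or 140 min array.

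**Figure D2:**
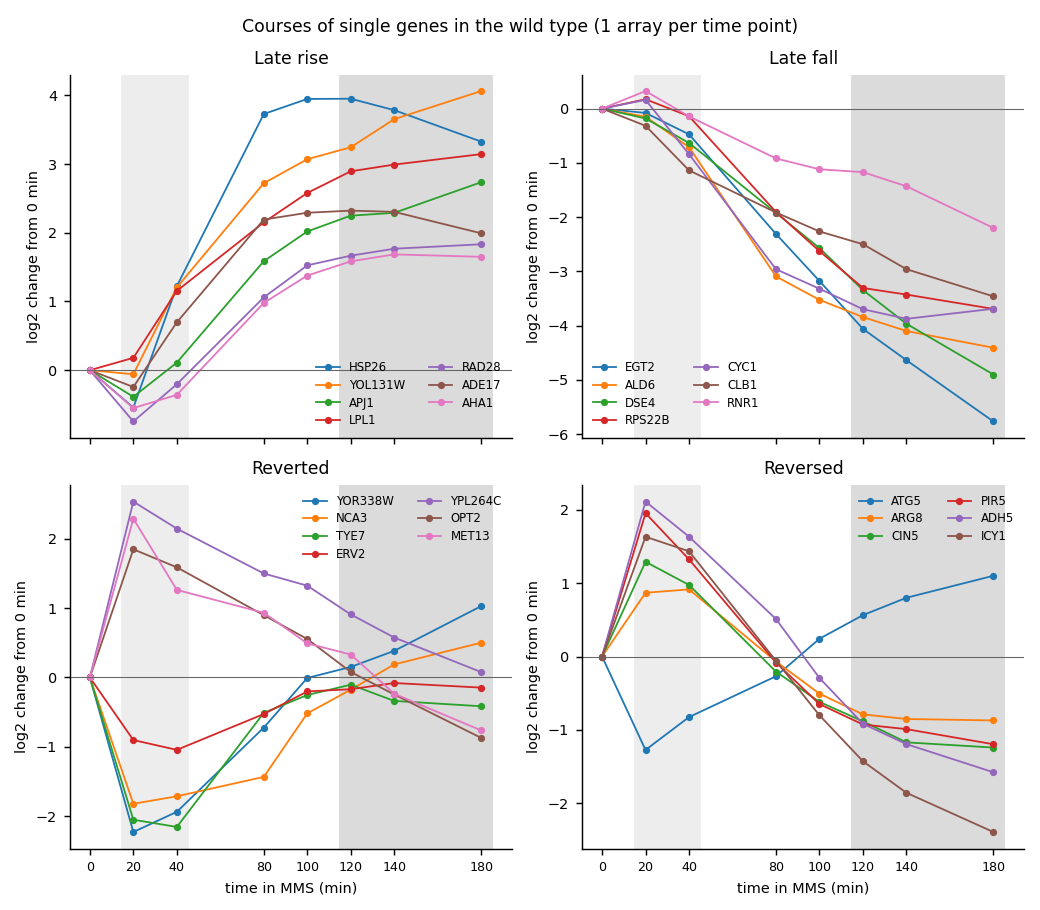
Log2 change from 0 min against time in MMS (min) for single wild-type genes, 1 array per point, in 4 panels. Light and dark grey bands mark the early and the late arrays. HSP26 and ADE17 peak at 100 to 120 min, EGT2 and DSE4 still fall at 180 min, and 6 reversed genes cross the 0 min level between 40 and 100 min.

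Genes of cell division included the largest falls. In the list for daughter cell separation and the M/G1 boundary 15 of 20 fell and 1 rose, with a median of -1.93. EGT2, a cell wall endoglucanase of cytokinesis, read 8.32, 7.74 and 6.61 late against 12.30 and 11.91 early, 23.3-fold lower (-4.54 ± 0.50, adjusted p = 0.0019). DSE2, a daughter-specific glucanase, read 8.46, 7.76 and 6.65 late against 12.03 and 11.84 early (-4.31 ± 0.55, adjusted p = 0.0024). Both were lowest on the 180 min array, without overlap between late and early. DSE4 and SCW11, glucanases of the same process, were lower late too (-3.66 ± 0.45 and -2.77 ± 0.19). PIR3, a cell wall protein, was the member that rose (1.26 ± 0.30), a call lost without the 20 min array. Leaving out any 1 array left between 13 and 16 members down.

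The G2/M and mitotic exit list had 24 of 28 down and 1 up (BUB2, a brake on mitotic exit), with a median of -1.07. CLB1, a mitotic cyclin, read 8.59, 8.13 and 7.62 late against 10.77 and 9.95 early (-2.25 ± 0.34, adjusted p = 0.0034). HOF1 and CHS2, which act in cytokinesis and septum formation, fell by 2.15 ± 0.27 and 1.92 ± 0.30. HST3, a deacetylase of newly placed histone H3, fell by 1.74 ± 0.22. Cyclins and Cdk regulators had 15 of 24 down and 2 up (PCL7 and MIH1, the call of MIH1 lost without the 120 or 140 min array). Those that fell included the G1 cyclin CLN2, with 7.56, 7.36 and 6.60 late against 9.25 and 8.62 early (-1.76 ± 0.32), and FAR1, the G1 inhibitor (-2.05 ± 0.31). DNA replication and G1/S genes had 11 up (6 without the 140 min array) and 9 down of 50. Both counts are near the shares over all probe sets (26.5% up and 23.0% down), so they set this list apart in neither direction. RFA1, of the single-strand binding complex, rose by 1.02 ± 0.16, and the helicase genes MCM7, MCM2 and MCM3 fell by 1.19, 0.97 and 0.89.

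In the cell wall and lipid lists more members fell than rose. Of 39 cell wall and mannoprotein genes 20 fell and 8 rose. SUN4 and CWP1 fell by 2.71 ± 0.30 and 2.55 ± 0.31. Fatty acid and phospholipid genes had 12 of 29 down and 8 up. FAS1, a fatty acid synthase subunit, read 10.76, 10.22 and 9.81 late against 13.23 and 12.69 early (-2.69 ± 0.31, adjusted p = 0.002), whereas INO1, for inositol synthesis, rose by 1.92 ± 0.20. ACS2 and ALD6, which make cytosolic acetyl-CoA and acetate, fell by 2.13 ± 0.24 and 3.69 ± 0.24. The ergosterol list had 18 of 41 down and 4 up (ARE2, PAU7, UPC2 and ROX1), and ROX1 lost its call without the 40, 80, 100, 120, 140 or 180 min array. ARE2, a sterol acyltransferase, rose by 2.10 ± 0.31.

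Ribosomal protein genes were lower late than early by small amounts. Of 75 measured large subunit genes 40 fell and 1 rose (RPL15B, not without the 140 min array), with a median of -0.49, and of 52 small subunit genes 25 fell and 0 rose, with a median of -0.45. RPS22B stood apart, with 9.61, 9.49 and 9.23 late against 13.09 and 12.78 early (-3.49 ± 0.23, adjusted p = 0.0015). RPL17B and RPS26B were lower by 1.58 and 1.37, RPS26B reading 11.86, 12.36 and 12.69 late against 14.13 and 13.21 early with a call lost without the 20 min array. The medians relative to 0 min were lowest at 100 min, before the late arrays. For the large subunit list they were -0.32, -0.74 and -0.87 at 40, 80 and 100 min. For the small subunit list they were -0.27, -0.83 and -0.95. Within the late phase they rose again, with -0.86, -0.72 and -0.46 at 120, 140 and 180 min for the large subunit list. Those of the small subunit list were -0.85, -0.61 and -0.46. Many of these genes are pairs of near-identical copies whose probe sets may share signal. The small subunit count was 12 without the 120 min array, 7 without the 20 min array and 8 without the 140 min array, and the large subunit count was 24 without the 20 min array and 23 without the 140 min array.

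Of 20 tRNA synthetase genes 17 fell and 0 rose, with a median of -0.65. VAS1, for valine, read 11.14, 11.14 and 11.05 late against 12.78 and 12.36 early (-1.46 ± 0.15, adjusted p = 0.0018). Translation initiation and elongation genes had 16 of 35 down and 2 up (GCD1 and HCR1, 5 without the 20 min array and 1 without the 40 or 140 min array). ANB1, a form of the factor eIF5A, fell by 2.21 ± 0.38 and TEF4, an elongation factor subunit, by 1.51 ± 0.17.

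**Figure D3:**
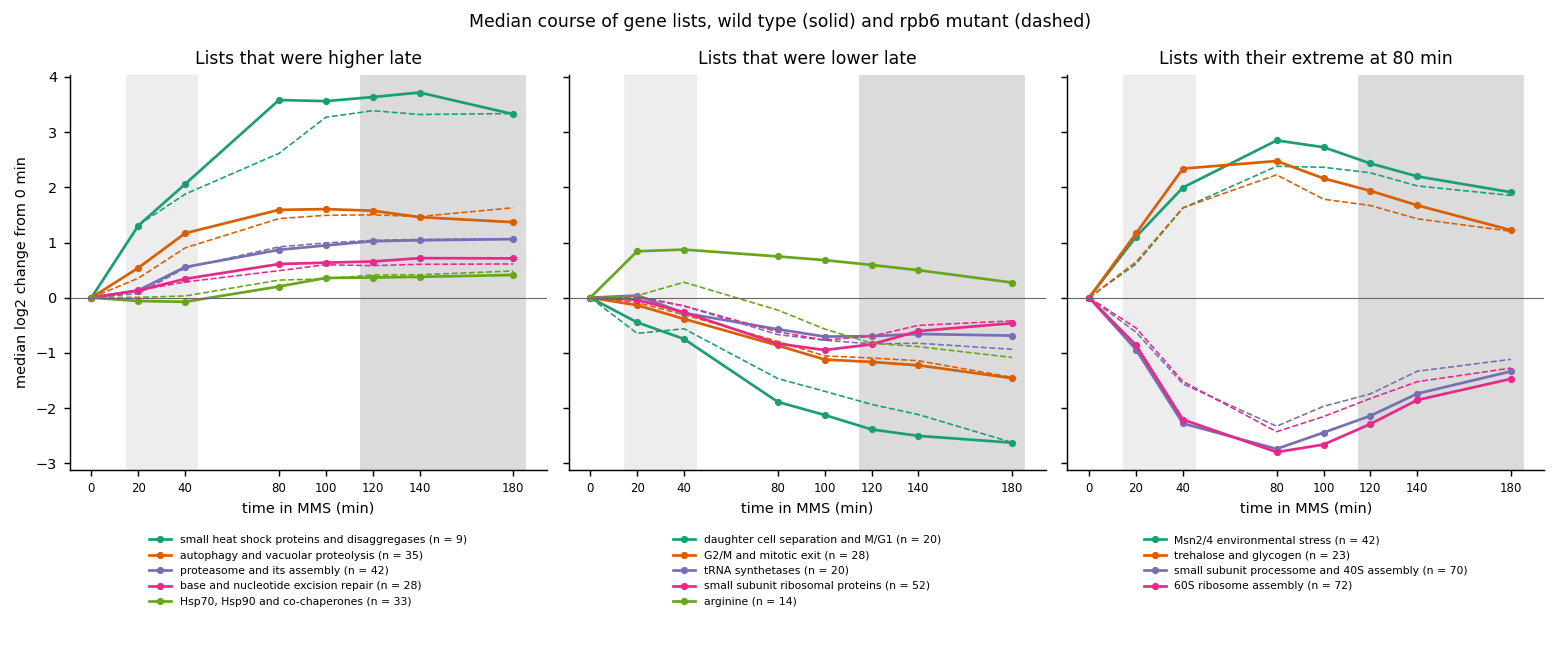
Median log2 change from 0 min of the members of 14 gene lists against time in MMS (min), wild type solid and rpb6 mutant dashed. Light and dark grey bands mark early and late arrays. The proteasome list levels off near 1.0, the daughter separation list is still falling at 180 min and the ribosome assembly lists are lowest at 80 min.

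The medians of both ribosome assembly lists were lowest at 80 min. The median of 70 small subunit processome and 40S assembly genes was -0.94 at 20 min, -2.28 at 40 min, -2.74 at 80 min, -2.45 at 100 min, -2.14 at 120 min, -1.74 at 140 min and -1.33 at 180 min relative to 0 min. The medians of the mean changes were close, -1.75 late and -1.61 early, with 3 members up (FAL1, FCF2 and SGD1) and 4 down (RRP5, UTP20, UTP22 and UTP10). UTP20 lost its call without the 80, 100, 120, 140 or 180 min array, FAL1 without the 40 or 140 min array, FCF2 without the 40, 140 or 180 min array and SGD1 without the 140 min array. The direction of this list turned on the early arrays: without the 20 min array 18 were up and 4 down, and without the 40 min array 1 was up and 28 down. The 72 genes of 60S assembly, with 5 up and 4 down, followed the same course, down to -2.80 at 80 min and -1.47 at 180 min, and turned likewise, with 15 up and 4 down without the 20 min array and 0 up and 34 down without the 40 min array. Of the 5 members of 60S assembly up, 0 were called without the 140 min array and 1 without the 180 min array. The Msn2/4 stress genes had a median of 2.85 at 80 min and 1.91 at 180 min above 0 min, and the trehalose and glycogen genes 2.48 and 1.22. Late minus early, 14 of 42 Msn2/4 genes were up and 3 down (GSY1, CTT1 and TPS2). The number up was 29 without the 40 min array and 8 without the 120 or 140 min array, and the number down was 6 without the 20 min array and 1 without the 40, 140 or 180 min array.

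Single ribosome assembly genes passed in both directions. DBP2, an RNA helicase, read 6.66, 6.79 and 7.36 late against 11.98 and 9.64 early (-3.87 ± 0.64, adjusted p = 0.0044), and REA1, the AAA ATPase of 60S maturation, fell by 3.15 ± 0.26. REI1, a late 60S factor, read 10.10, 10.56 and 10.80 late against 9.63 and 8.54 early and 12.08 at 0 min (1.41 ± 0.39), a call lost without the 40, 140 or 180 min array. RPA135 and RPA190, the large subunits of RNA polymerase I, were lower late by 2.09 and 1.32 (RPA190 lost its call without the 120 or 140 min array), while RRN3 and RRN11, initiation factors of the same polymerase, were higher by 1.43 and 1.58. RRN3 read 11.44, 11.61 and 11.78 late against 10.22 and 10.15 early, with 11.03 at 0 min.

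Several amino acid synthesis lists were lower late than early. Relative to 0 min, the arginine list had a median of 0.46 late and 0.86 early, and the lysine list 0.18 and 0.49. The other Gcn4-controlled list had 0.10 late and 0.39 early. The branched-chain list stood at -0.52 late and -0.001 early, so its median had no early rise to lose. Of 14 arginine genes 8 fell and 2 rose (ARG81 and ARG82, regulators of arginine genes, 1 of them without the 20 min array). In this list 6 were reverted, against 186 of all 5716 probe sets. ARG1, of arginine synthesis, read 13.36, 13.04 and 12.59 late against 14.29 and 14.42 early (-1.36 ± 0.23, adjusted p = 0.0049), with 13.40 at 0 min. Of 10 lysine genes 7 fell, of 14 branched-chain genes 9 fell and of 36 other Gcn4-controlled genes 18 fell, with 0, 0 and 1 (SER3) up, and 4 of the last list were up without the 20 min array and 3 without the 40 min array. Without the 120 or 140 min array 4 lysine genes were down. ILV3, of the branched-chain pathway, fell by 2.15 ± 0.18, and its early mean was 0.07 above 0 min. TRP4, of tryptophan synthesis, read 11.50, 11.34 and 11.01 late against 12.85 and 12.77 early (-1.53 ± 0.17), with 11.95 at 0 min.

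In sulfate assimilation and methionine synthesis 11 of 33 fell, 8 rose and 8 were reverted. The number up is near the share over all probe sets (26.5%), and 186 of all 5716 probe sets were reverted. MET13, a methylenetetrahydrofolate reductase, read 8.88, 8.31 and 7.78 late against 10.84 and 9.81 early, with 8.55 at 0 min (-2.00 ± 0.40, adjusted p = 0.0079). MET28, a regulator of this pathway, remained 0.95 above 0 min late, against 2.46 early, and so was attenuated.

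The reverted genes went back from either side. Among those that were high early and fell, the little-studied YPL264C read 9.07, 8.74 and 8.24 late against 10.70 and 10.31 early, with 8.16 at 0 min (-1.82 ± 0.25). OPT2, an oligopeptide transporter homologue, read 9.25, 8.92 and 8.30 late against 11.02 and 10.76 early, with 9.17 at 0 min (-2.06 ± 0.28). SRL4 was 0.21 below 0 min late and 1.61 above it early. DBF2, a kinase of mitotic exit, and GAC1, a targeting subunit of a phosphatase for glycogen metabolism, fell by 1.46 ± 0.19 and 1.49 ± 0.29.

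Among those that were low early and came back, YOR338W read 9.47, 9.70 and 10.35 late against 7.09 and 7.38 early, with 9.32 at 0 min (2.61 ± 0.31, adjusted p = 0.0021). NCA3, a glucanase family gene, read 7.94, 8.31 and 8.62 late against 6.30 and 6.40 early, with 8.12 at 0 min (1.94 ± 0.30). TYE7, an activator of glycolytic genes, read 10.51, 10.28 and 10.20 late against 8.57 and 8.46 early, with 10.62 at 0 min (1.82 ± 0.14, adjusted p = 0.0017). MIG3, a glucose-responsive repressor, and KTI11, of the diphthamide pathway, rose by 1.52 ± 0.19 and 1.40 ± 0.35, and KTI11 lost its call without the 40 min array. At 80 min the 94 reverted genes higher late had covered a median of 39.1% of the way from early to late, and the 92 lower late 43.4%. At that time 81 of the 186 were still past the limit.

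The 8 reversed probe sets went through the 0 min level. ICY1 read 9.95, 9.52 and 8.98 late against 13.01 and 12.81 early, with 11.38 at 0 min, so that it stood at -1.89 late and at 1.53 early relative to 0 min (late minus early -3.43 ± 0.32, adjusted p = 0.0017). ADH5, an alcohol dehydrogenase, read 10.57, 10.29 and 9.91 late against 13.60 and 13.12 early, with 11.49 at 0 min (-3.11 ± 0.30). PIR5, a cell wall protein gene, read 6.93, 6.87 and 6.66 late against 9.82 and 9.18 early, with 7.86 at 0 min (-2.68 ± 0.24). These fell well below their starting level by 180 min.

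CIN5, a transcription factor of the Yap family, read 8.84, 8.56 and 8.48 late against 11.02 and 10.70 early, with 9.73 at 0 min (-2.23 ± 0.18). ARG8, of ornithine synthesis, read 10.38, 10.32 and 10.30 late against 12.04 and 12.09 early, with 11.17 at 0 min (-1.73 ± 0.14). YEL076C-A, a gene whose probe set reads several copies, was near background late (5.70, 5.01 and 5.26 against 7.15 and 7.66 early). One more probe set, with no gene listed, fell by 2.76 ± 0.37. ATG5, of the autophagy conjugation machinery, was the gene that turned the other way, with 11.52, 11.75 and 12.05 late against 9.68 and 10.13 early and 10.95 at 0 min (1.87 ± 0.23, adjusted p = 0.0023). ATG5 and ARG8 lie just past the limit late, at 0.82 and -0.84, and the probe set with no gene listed just past it early, at 0.81. At a 2-fold limit 4 remained, ICY1, ADH5, PIR5 and CIN5, and at 1.5-fold there were 23.

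Attenuated genes had large early changes of which part was left. CTT1, the cytosolic catalase and a classical Msn2/4 target, stood 2.18 above 0 min late and 3.58 early (-1.40 ± 0.35, adjusted p = 0.017). GSY1, a glycogen synthase, fell by 1.55 ± 0.30 on the log2 scale and had stood 3.05 above 0 min early. YGR079W had the largest early loss of these, at -1.39 late and -3.70 early (2.31 ± 0.38). CTT1 lost its call without the 40, 140 or 180 min array.

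Among drug and oxidative stress genes single members moved far while the lists were mixed. PDR1, the activator of multidrug exporters, read 13.03, 13.15 and 13.15 late against 11.17 and 11.80 early (1.62 ± 0.19, adjusted p = 0.0021). Its target PDR5, a drug exporter, read 11.65, 11.38 and 10.99 late against 12.77 and 12.62 early (-1.36 ± 0.21, adjusted p = 0.0038), the opposite direction, and so did the exporter gene YOR1 (-1.35 ± 0.15). The list had 8 of 27 up (5 without the 140 min array) and 8 down, not far from the shares over all probe sets (26.5% and 23.0%). YAP1, the activator of oxidative stress genes, rose by 1.10 ± 0.17 and OYE3, an NADPH oxidoreductase, by 1.74 ± 0.38. GRX4, a glutaredoxin of iron sensing, read 11.33, 11.20 and 11.10 late against 12.44 and 12.55 early and 11.36 at 0 min, a reverted change. Of 41 oxidative stress genes 4 fell (CTT1, GRX4, HMX1 and ATR1, 2 without the 140 min array) and 14 rose, 28 without the 40 min array and 7 to 9 without the 20, 80, 100, 120 or 140 min array.

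Respiratory and carbon genes went both ways. CYC1, the main cytochrome c, read 8.31, 8.13 and 8.31 late against 12.16 and 11.16 early, 10.7-fold lower (-3.41 ± 0.28, adjusted p = 0.0017). COX4, of cytochrome oxidase, fell by 1.36 ± 0.22 and GUT2, the mitochondrial glycerol phosphate dehydrogenase, rose by 1.14 ± 0.20. Oxidative phosphorylation had 9 of 43 up (5 without the 120 min array and 3 without the 140 min array) and 15 down, with a median of -0.05, near that of all probe sets. Glyoxylate cycle, gluconeogenesis and fatty acid oxidation genes had 14 of 32 up and 2 down (ATO3 and JEN1), with a median of 0.47, and 8 up without the 120 or 140 min array. HXT4 and HXT7, hexose transporters, fell by 1.65 ± 0.25 and 1.75 ± 0.25, and the HXT7 probe set may also read its close copies.

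Histone genes split even within pairs that encode the same histone, with 5 of 10 up (3 without the 140 min array) and 4 down. HTB2, a histone H2B, read 10.07, 9.99 and 9.96 late against 12.55 and 11.31 early (-1.92 ± 0.32, adjusted p = 0.0045), and HHO1, the linker histone, fell by 0.99 ± 0.20. HTB1, the other H2B gene, rose by 0.48, and of the H3 genes HHT1 rose by 0.76 ± 0.10 and HHT2 fell by 0.42. The others called were HTA1, HHF1 and CSE4, which rose, and HTZ1, which fell. Paired histone genes are near-identical in their coding sequence, so probe sets may share signal, and HTB1, HHT2, HTA1, CSE4 and HTZ1 were chosen after their values were seen. HTA1 lost its call without the 140 min array, HHT2 without the 40, 120, 140 or 180 min array and CSE4 without any 1 of the arrays but those at 0 and 40 min. Of the mRNA decay list 12 of 41 rose (7 without the 140 min array) and 12 fell, near the shares over all probe sets (26.5% and 23.0%). LSM2, of the decapping ring, read 10.07, 10.06 and 10.26 late against 12.03 and 11.61 early (-1.69 ± 0.16). The helicase gene DHH1 was lower by 1.57 ± 0.28. Sporulation genes had 16 of 52 up (10 without the 20 min array) and 5 down (IME1, SPO73, SPO11, HFM1 and SPO21, 2 without the 140 min array and 3 without the 80 or 100 min array). The number up is near the share over all probe sets (26.5% up, with 23.0% down), so it does not set this list apart. Those that rose included DMC1, the meiotic recombinase (1.40 ± 0.22), and RIM4, an RNA-binding regulator of meiosis (1.53 ± 0.27). IME1, the master regulator of meiosis, was 1.01 ± 0.11 lower.

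Other large falls stood in no list of this account so far. YJL047C-A read 6.85, 6.66 and 6.88 late against 11.33 and 10.60 early (-4.17 ± 0.27, adjusted p = 0.0015), and its early mean was 0.74 above 0 min. PTR2, the peptide transporter, read 9.05, 8.82 and 8.70 late against 12.83 and 11.83 early (-3.47 ± 0.33). INA1 read 6.80, 6.71 and 6.42 late against 11.78 and 8.98 early (-3.74 ± 0.71, adjusted p = 0.0067). Its early arrays lay far apart, as did those of AAH1, an adenine deaminase with 7.03, 7.36 and 7.77 late against 11.58 and 9.03 early, and HO, the mating-type endonuclease with 7.03, 6.93 and 6.86 late against 10.63 and 8.98 early. For these 3 the 40 min array already lay part of the way to the late level.

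**Figure D4:**
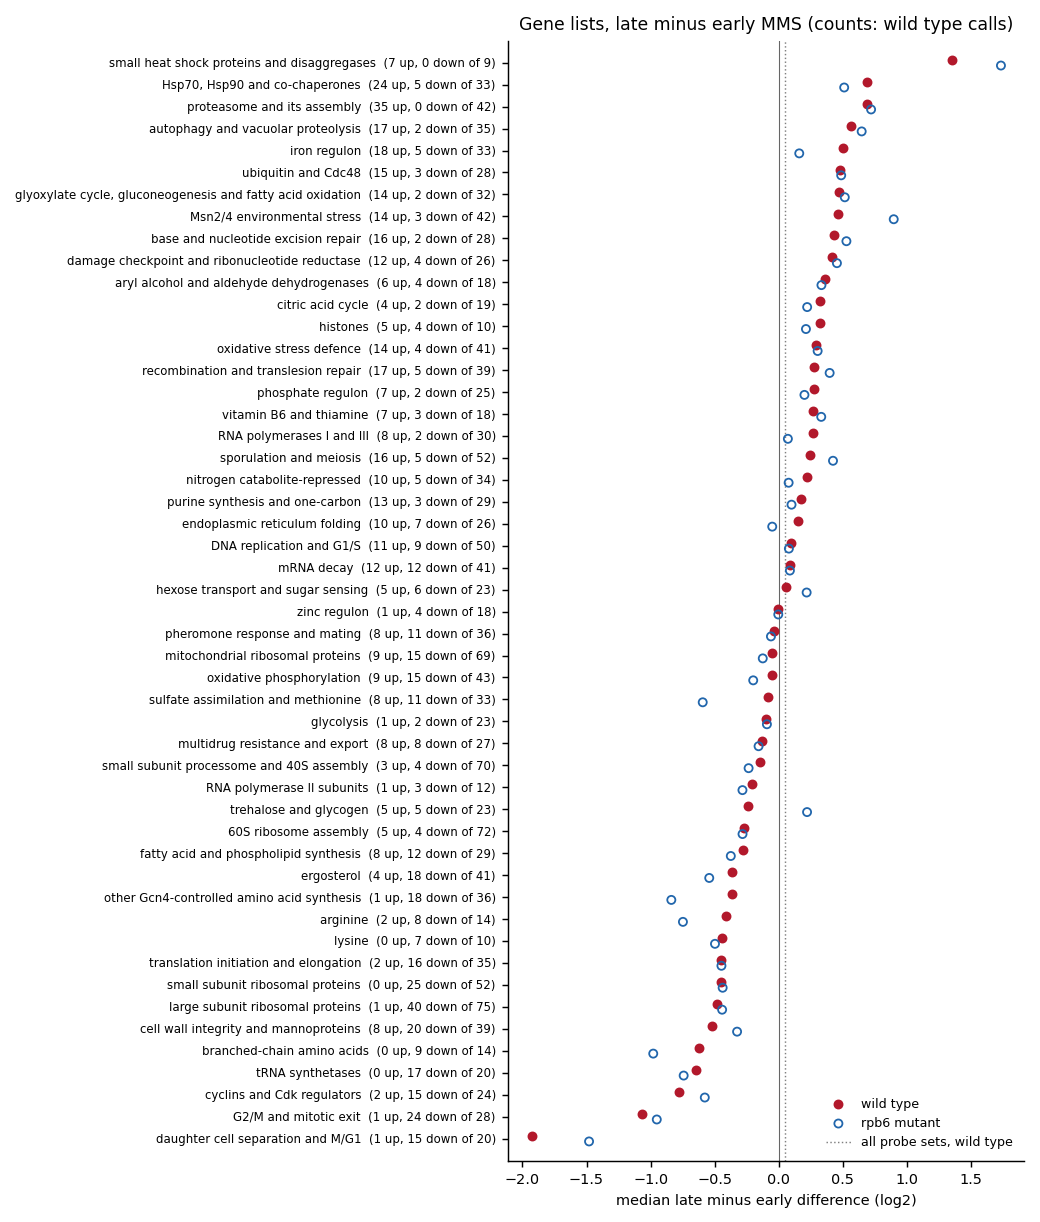
Median late minus early difference (log2, horizontal axis) of 50 gene lists in the wild type (filled) and the rpb6 mutant (open), with the number of wild-type members called up and down beside each list. The dotted line is the wild-type median of all probe sets. Chaperones and the proteasome stand at the top, and daughter separation, G2/M and cyclins and Cdk regulators at the bottom.

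The same contrast was made in the rpb6 mutant, a separate culture sampled at the same times. There 1714 probe sets (30.0%) were higher late and 1275 (22.3%) lower. Of the 1515 probe sets higher late in the wild type 85.0% were called the same way in the mutant and 2 the opposite way, and of the 1317 lower late 77.3% and 4. The other way round, 75.1% of the mutant's higher and 79.8% of its lower calls were called the same way in the wild type. EGT2 differed by -3.50 in the mutant, HSP26 by 3.47 and the median proteasome gene by 0.72, with 38 of 42 up. Late-arising calls recurred as late-arising in 76.3% of cases and reverted calls as reverted in 25.8%. No probe set of any class was reversed in the mutant, so none of the 8 reversed in the wild type recurred as such. All 8 were called in the same direction there: ICY1 stood at -2.87 late and 0.62 early relative to the mutant's own 0 min, and ADH5 at -2.46 and 0.39. The share for reverted genes was not tested between strains, and each class rests on a single 0 min array per strain.

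**Figure D5:**
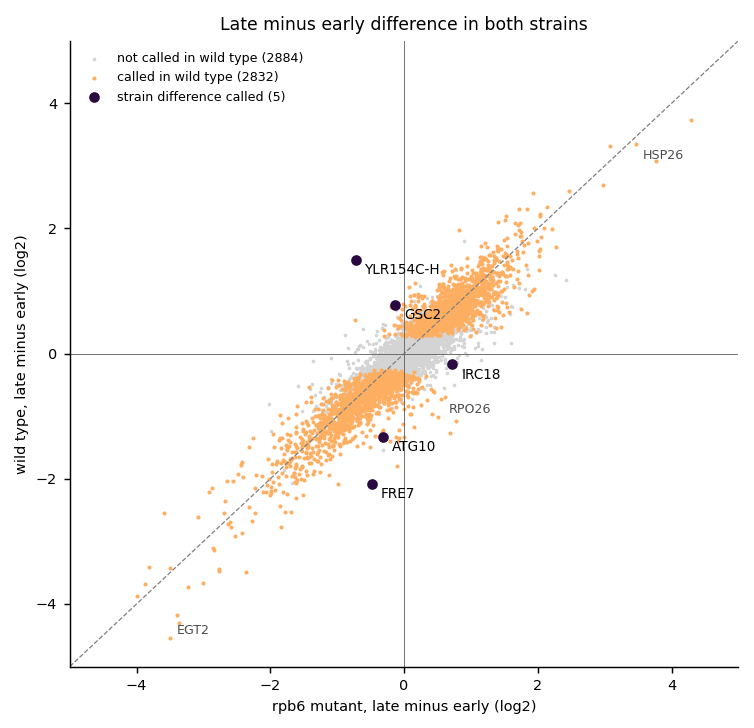
Late minus early difference (log2) in the wild type (vertical axis) against the rpb6 mutant (horizontal axis) for all 5716 probe sets. Orange points passed in the wild type, and dark points are the 5 whose difference between strains passed. The dashed line marks equal differences.

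The difference between the strains in late minus early was called for 5 probe sets (0.0875%), with 525 at an unadjusted p under 0.05. Deviations of arrays from their phase mean were correlated between the strains, and with time point as a block 1265 passed. The low count thus describes the fit without pairing. Strain and culture cannot be told apart. YLR154C-H, encoded within the ribosomal DNA and read by a probe set that may match several copies, moved in opposite directions: 10.18, 10.49 and 10.59 late against 9.03 and 8.81 early in the wild type, and 9.78, 9.69 and 9.86 late against 10.31 and 10.69 early in the mutant (-0.72 ± 0.14). FRE7, a ferric reductase homologue, was lower late by 2.08 in the wild type and by 0.49 in the mutant, whose 0 min level of 7.73 and early levels of 6.60 and 6.69 were below the wild type's 8.55, 8.41 and 8.34. RPO26, the gene of the Rpb6 subunit, was 0.72 lower late in the wild type and 0.55 higher in the mutant, and its wild-type call was lost without the 20, 80, 100, 120 or 140 min array. That strain difference of -1.28 ± 0.27 had an adjusted p of 0.13, and 0.008 with time point as a block.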

How the data were processed

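Of the 58 arrays of the series, the 16 MMS arrays were used and the other 42 were not used here. The authors deposited log2 levels made by RMA. The authors also deposited log2 fold changes against 0 min, which equal the differences of these levels and were not used for any test. The depth of an array has no count, so the number of arrays limits the precision. Of 10928 probe sets on the chip, 5716 were taken as S. cerevisiae, 5498 of them with 1 gene symbol and 218 with none listed. Genes were named from GEO's platform table, updated through RefSeq. A gene with several probe sets was read from the brightest one. No coordinates or sequences are given, since the build was not given in the sources used here.

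limma 3.58.1 in R 4.3.3 fitted phase (0 min, early, mid, late) to the 8 wild-type arrays, with eBayes and Benjamini-Hochberg adjustment at 0.05. The mutant was fitted alike, and strain by phase was fitted to the 16 arrays for the difference between strains. Classes, lists and figures were made in Python 3.11.15 with pandas 2.3.3 and matplotlib 3.10.9. The fit was tested on simulated data: with 200 of 5716 probe sets changed in late minus early, 66% of changes of log2 0.8, 76% of log2 1 and 90% of log2 2 were recovered, with 10 false calls. The measured contrast called 2832, so the simulated rates need not hold for it. Background probe sets were called too. Of 1747 S. pombe probe sets fitted together with S. cerevisiae, wild-type arrays gave 10 up and 37 down, mutant arrays 12 and 52. Fitted alone, S. pombe gave 1 and 5 for wild-type arrays, 2 and 21 for mutant ones.

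The 53 gene lists come from general knowledge, and 1583 of their 1621 names were measured. The members and lists were chosen with earlier results of these data known. The genes named are the 15 largest late minus early changes in each direction, the 8 largest in each direction of the late-arising and reverted classes, the reversed genes, up to 4 called members of each list, and a few damage response genes. List members named because 5 or fewer went one way, and FRE7, GSC2 and IRC18, were chosen after their values were seen.

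Arrays of 1 time point were checked for pairing between strains. Their deviations from the phase means correlated between 0.34 and 0.87 at every time point, so the strain difference is also given with time point as a block. Alternatives covered the arrays fitted, normalization, a filter on dim probe sets, thresholds, the bounds of both phases, the 0 min baseline and each array left out.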

Additional observations from a re-analysis of the deposited data

Results flagged for a closer look

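The late minus early difference of 5 genes differed between the strains in the limma fit of all 16 arrays. YLR154C-H differed by 2.22 ± 0.20 (wild type minus mutant, adjusted p = 0.002), FRE7 by -1.60 ± 0.21 (adjusted p = 0.03), GSC2 by 0.91 ± 0.12 (adjusted p = 0.03), ATG10 by -1.01 ± 0.15 (adjusted p = 0.044) and IRC18 by -0.89 ± 0.13 (adjusted p = 0.044). GSC2, an alternative glucan synthase subunit, read 11.39, 11.40 and 11.46 late against 10.54 and 10.72 early in the wild type, and 11.18, 11.17 and 11.08 late against 11.27 and 11.28 early in the mutant, so the wild type rose to a level the mutant already had at 0 min (11.38). ATG10, a conjugation enzyme of autophagy, fell by 1.33 on the log2 scale in the wild type and by 0.31 in the mutant. IRC18 was not called in the wild type (-0.17, adjusted p = 0.22) and was higher late by 0.72 in the mutant. All 5 also passed in the limma fit with time point as a block, with adjusted p between 0.0024 and 0.003. That fit used the same 16 arrays and called 1265 of all 5716 probe sets, so it adds no independent support for these 5.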

How the results depend on the processing

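The count of 2832 late minus early calls in the wild type lay between 2266 and 3127 with the 5 arrays alone, all 16 arrays, other normalizations, dim probe sets left out, an intensity trend, late arrays of 140 and 180 min only, or a linear trend in time. It was 587 with 80 min moved to the early and 100 min to the late group, 1512 at an adjusted p of 0.01 and 706 with a 2-fold minimum. Leaving out 1 array gave 1844 (without 140 min) to 3518 (without 40 min) in the wild type and 1989 (without 140 min) to 3659 (without 40 min) in the mutant, against 2989. The strain difference, 5 calls, had 2 with only the 10 early and late arrays, 3 with an intensity trend and 1265 with the replicate block (time point), and 0 (without 140 min) to 150 (without 40 min) with 1 array left out. Late-arising probe sets numbered 767 to 1604, reverted 129 to 268 and reversed 7 to 10 with 1 array left out. Reversed probe sets numbered 4 at a 2-fold and 23 at a 1.5-fold limit. Of the 233 named genes none changed direction, and 146 lost the call when 80 min was counted as early, 33 in the linear trend, 24 without 140 min and at most 14 in any other setting. The cause was not tested. Each strain has 1 array per time point, and 2.1% of probe sets lie at or below background, where changes are compressed.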
